A study of Mus musculus with 6 samples.

Results

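The phosphate transporters described here are the sodium-phosphate cotransporters Slc34a1, Slc34a2, Slc34a3, Slc20a1 and Slc20a2, the phosphate exporter Xpr1 and the scaffold gene Slc9a3r1, whose protein NHERF1 holds Slc34a1 at the brush border. They were taken by name: every non-control probe whose RefSeq accession belongs to 1 of these 7 genes, which gave 11 probes, among 21154 genes with a named probe on the array. Of the 7 genes, 6 passed the filter on dim probes and were tested, and 15309 genes were tested in all. Total RNA of whole kidneys was hybridised to 1 single-colour Agilent array per mouse, with 3 arrays in each of 2 groups. All mice were male and of strain C57BL/6J; the groups are Control and iNampt-conditional knockout, and no treatment, diet or age is given in the sources used here. The series title places the role of Nampt, the rate-limiting enzyme of NAD salvage, in the renal proximal tubule and refers to diabetic nephropathy, but no label marks a mouse as diabetic. The floxed exons, the Cre driver and the genotype of the controls are likewise not given in the sources used here.

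Filtered phosphate is reclaimed mainly in the proximal tubule, where the type II cotransporters Slc34a1 (NaPi-IIa) and Slc34a3 (NaPi-IIc) sit in the brush border membrane and carry phosphate into the cell with sodium. Parathyroid hormone, and FGF23 with its co-receptor Klotho, lower this transport, largely by removing the cotransporters from the membrane, and both also set the balance of the vitamin D enzymes Cyp27b1 and Cyp24a1. The type III cotransporters Slc20a1 (PiT1) and Slc20a2 (PiT2) are found in many tissues, Slc34a2 (NaPi-IIb) serves the intestine and lung, and Xpr1 carries phosphate out of cells. Expression of these genes was compared between control and Nampt knockout kidneys to ask whether the transcripts of the phosphate transport machinery differ when Nampt is deleted. Transcript levels say nothing on the amount of protein in the membrane.

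Nampt itself was lower in the knockouts, at normalised log2 signals of 2.77, 2.59 and 2.65 in the controls and 1.80, 1.50 and 1.53 in the knockouts (limma adjusted p = 0.0431, and 0.00750 to 0.184 over the alternative settings, all with a negative difference). The labels do not say whether its probe lies inside the deleted part. All 12 fixed markers of the convoluted proximal tubule and all 9 of the straight segment were well above background on all 6 arrays, so the samples held the tubule in which the main transporters are found. No spot was saturated. All 6 arrays share 1 slide. Its first row carries the controls together with knockout 1, whereas knockouts 2 and 3 are in the second row. The number of arrays limits the precision, and in whole kidney fewer cells of a type and less RNA per cell cannot be told apart. Signals are given as log2 of the processed intensity relative to the 75th percentile of the same array, and they rank arrays for 1 probe but not probes against each other.

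The upstream sequences of 3 members are printed because Slc34a1 and Slc34a3 are the tubule's own cotransporters, whose signals overlapped between the groups, and Slc20a1 is the member that lay lower in every knockout. RefSeq windows of GRCm38.p6 were available for 6 of the 7 genes. Each line reads 5′ to 3′ on the gene's strand and ends before the first annotated base of the gene, and capitals mark matches on either strand to GTTAAT, part of the palindrome bound by HNF1 factors of the tubule, to the E-box CACGTG, to the GC box GGGCGG or to the TATA box TATAAA. No 2 of these motifs overlap in the lines shown.
Slc34a1, chr13:55399398-55399621, plus strand: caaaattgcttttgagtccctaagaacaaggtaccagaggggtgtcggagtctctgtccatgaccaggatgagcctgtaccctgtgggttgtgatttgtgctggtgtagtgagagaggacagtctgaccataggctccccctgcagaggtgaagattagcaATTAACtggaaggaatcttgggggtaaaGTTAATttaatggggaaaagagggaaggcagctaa
Slc34a3, chr2:25234271-25234484, minus strand: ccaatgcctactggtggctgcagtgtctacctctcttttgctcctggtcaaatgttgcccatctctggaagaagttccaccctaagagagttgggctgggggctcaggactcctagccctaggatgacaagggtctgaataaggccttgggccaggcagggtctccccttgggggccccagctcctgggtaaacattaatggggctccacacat
Slc20a1, chr2:129198523-129198772, plus strand: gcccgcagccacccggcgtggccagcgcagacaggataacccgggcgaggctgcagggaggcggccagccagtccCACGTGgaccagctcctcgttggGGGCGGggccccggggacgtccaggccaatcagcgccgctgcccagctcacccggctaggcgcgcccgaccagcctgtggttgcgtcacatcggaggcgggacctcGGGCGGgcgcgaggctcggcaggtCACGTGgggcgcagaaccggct

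Counts were made over whole windows of 250 bases, of which 224 are printed for Slc34a1 and 214 for Slc34a3. The Slc34a1 window held 2 matches to GTTAAT and 1 CG dinucleotide, while the Slc20a1 window shown held 2 E-boxes, 2 GC boxes and 29 CG dinucleotides. Slc34a3 had no match to any of the 4 motifs and 2 CG dinucleotides, and TATAAA was in none of the 3 windows. A second Slc20a1 window of the table, at chr2:129206846-129207095 downstream of the one shown, held 1 GC box, none of the other 3 motifs and 5 CG dinucleotides. Among 32851 such windows of the table, 6.43% held GTTAAT, 6.02% the E-box, 32.7% the GC box and 12.4% the TATA box on either strand, and the median window had 6 CG dinucleotides. The windows not printed held 28 CG dinucleotides and no GC box for Slc34a2, 20 and 3 GC boxes for Slc9a3r1, and 13 and 2 for Xpr1. None of these held an E-box or GTTAAT. The signals of these genes overlapped between the groups, so many CG dinucleotides or GC boxes were not particular to Slc20a1. These matches describe the letters of the windows only. The sequences of the array's probes are not used here.

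Slc34a1, the main phosphate cotransporter of the kidney, had overlapping signals in the groups. Its signals were 8.17, 8.19 and 8.31 in control kidneys and 8.20, 8.22 and 8.18 in knockout kidneys. The highest signal was that of control 3, and all 3 knockouts lay between control 1 and control 3. The means were 8.23 ± 0.07 and 8.20 ± 0.02 (SD, n = 3 each), a difference of -0.025 ± 0.054 (log2, SE; limma adjusted p = 0.886). The 95% interval of the difference ran from -0.16 to 0.11, which is a change between -10.4% and 7.79%. A further Slc34a1 probe was at 7.16, 7.15 and 7.35 in the controls and 7.21, 7.26 and 7.16 in the knockouts, a difference of -0.0089 ± 0.072 with the same array highest.

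The intensities of Slc34a1 before any scaling between arrays gave another order. They were 252907, 255296 and 252524 units in the controls and 243779, 233573 and 233287 in the knockouts, so that every knockout lay below every control. Each array's 75th percentile differed as well, at 876, 872 and 796 units in the controls and 830, 781 and 805 in the knockouts. Without scaling, an alternative chosen after seeing the data, the difference was -0.099 (limma adjusted p = 0.255), while the median over all genes was -0.081 on that scale.

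Slc34a3, the second brush border cotransporter, whose loss in humans causes hereditary hypophosphataemic rickets with hypercalciuria, varied most among the tested members. It was measured at 5.14, 5.32 and 5.62 in control kidneys and at 5.24, 5.38 and 5.26 in knockout kidneys. The controls alone spanned 0.49 log2 units, and the 3 knockouts fell inside that span. The difference was -0.065 ± 0.13 (SE; adjusted p = 0.874) with a 95% interval from -0.38 to 0.25. Without control 3 the difference turned to 0.067, and that of Slc34a1 to 0.017. The Slc34a1 and Slc34a3 signals had Pearson r = 0.963 over the 6 arrays, a description in which both values share each array's scaling. The difference between them within an array was 3.04, 2.88 and 2.69 in the controls and 2.96, 2.84 and 2.92 in the knockouts, which overlap (exact permutation test, two-sided p = 0.8).

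Other genes followed the same array-to-array pattern. By Pearson r over the 6 arrays among 15306 genes compared, the genes most like Slc34a1 were Rnf185 (r = 0.996), Gata5 (0.996) and the sarcosine dehydrogenase gene Sardh (0.995). Those most like Slc34a3 were Uros, an enzyme of haem synthesis (r = 0.996), Dgcr6 (0.994) and Aatf (0.994). Control 3 had the highest signal for each of these 6 genes, as it had for both cotransporters. The 6 genes were picked for this likeness, so their shared highest array follows from the choice. Before scaling, control 3 was the highest array for Slc34a3 (39211 units) but the lowest control for Slc34a1 (252524 units).

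Slc34a2, the intestinal and lung cotransporter, was at the limit of detection. Its probe was well above background in controls 1 and 2 and knockout 1 but not on the other 3 arrays. The lowest signal with that flag was 18.5 to 20.9 units on the controls and knockout 1, and 29.6 and 32.2 units on knockouts 2 and 3. The intensities were 27.3, 23.0 and 14.1 units in the controls and 26.9, 23.3 and 22.5 in the knockouts, and the groups overlapped. The gene was not tested in the main comparison. With no filter on dim probes it was at 0.30 (limma adjusted p = 0.550).

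Slc9a3r1 encodes NHERF1, a PDZ scaffold that binds the tail of Slc34a1 and is needed to keep it at the membrane. Its controls had signals of 3.82, 3.71 and 3.80 and its knockouts at 3.71, 3.84 and 3.78. The values of the groups interleaved, with means of 3.78 ± 0.06 in each group (SD, n = 3). The difference was 0.0024 ± 0.058 (SE; adjusted p = 0.991), with a 95% interval from -0.14 to 0.14. Relative to Slc9a3r1 on the same array, Slc34a1 stood at 4.35, 4.49 and 4.51 in the controls and 4.48, 4.38 and 4.40 in the knockouts, again overlapping (exact permutation test, two-sided p = 0.8, and 0.8 after Benjamini-Hochberg adjustment over the 2 ratios tested). The lower limit of 0.1 holds for this test too.

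**Figure D1:**
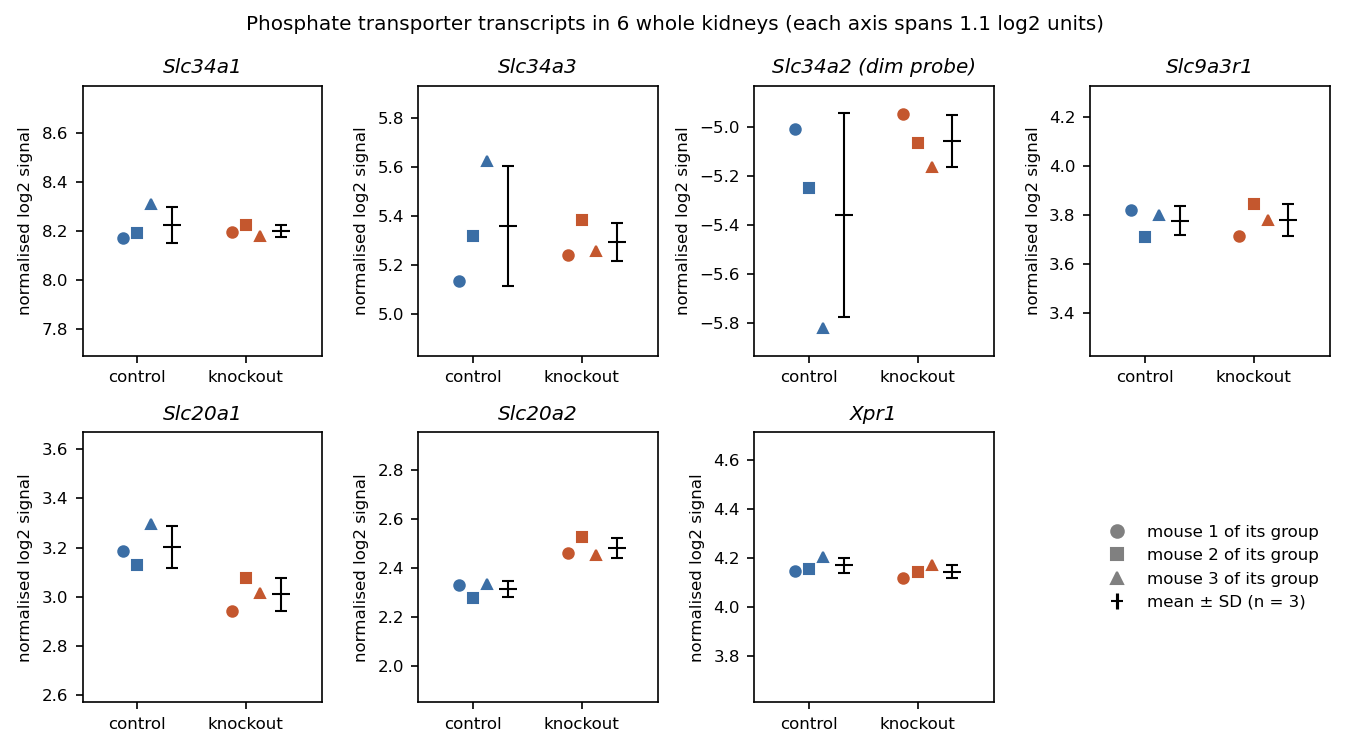
Normalised log2 signal of the 7 member genes in the 3 control and 3 knockout kidneys, 1 point per array, with the group mean ± SD beside the points. The groups overlap for Slc34a1, Slc34a3, Slc34a2, Slc9a3r1 and Xpr1, while all 3 Slc20a1 knockout values lie below and all 3 Slc20a2 knockout values above the controls.

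Neither type III cotransporter passed the test, and the signals of each were separate between the groups, Slc20a1 with the knockouts lower and Slc20a2 with the knockouts higher. Such separation was seen for 19.5% of all genes tested. Slc20a1, a widely expressed sodium-phosphate cotransporter, was at 3.18, 3.13 and 3.30 in the controls and at 2.94, 3.08 and 3.01 in the knockouts. Every knockout lay below every control, with a gap of 0.05 between control 2 and knockout 2. The means were 3.20 ± 0.09 and 3.01 ± 0.07 (SD, n = 3 each). The difference of -0.19 ± 0.07 (SE), or -12.5%, had a 95% interval from -0.35 to -0.032 and an unadjusted p of 0.0259, and it did not pass over all genes (limma adjusted p = 0.327). A further Slc20a1 probe, designed on accession NM_001159593, was well above background in controls 1 and 3 and in no knockout, with intensities of 27.0, 22.0 and 37.7 units against 14.1, 7.14 and 32.4. Knockout 3 thus lay above control 1 in intensity without the flag. The lowest flagged signal of any spot was 32.2 units on knockout 3, 19.7 on control 1 and 18.6 on control 2. Knockout 3 and control 2 were above that value of their own array and still unflagged, so it does not account for their flags. No fold is given for this probe, since its controls are themselves at the limit of detection.

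Slc20a2, the other type III cotransporter, whose loss in humans causes brain calcification, was at 2.33, 2.28 and 2.34 in the controls and 2.46, 2.53 and 2.45 in the knockouts. Every knockout lay above every control, and each group spanned less than 0.1. The difference was 0.16 ± 0.05 (SE), or 12.1%, with a 95% interval from 0.049 to 0.28, an unadjusted p of 0.0132 and a limma adjusted p of 0.269. A further Slc20a2 probe lay at -0.32, -0.34 and -0.17 in the controls and -0.15, -0.066 and -0.15 in the knockouts. Its difference was 0.16 ± 0.07 (SE), with a 95% interval from -0.0038 to 0.32 that included 0 (limma unadjusted p = 0.0541, adjusted p = 0.410). Its groups did not overlap either, although control 3 and knockout 1 were only 0.02 apart.

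On the same array, where the scaling cancels, Slc20a1 stood above Slc20a2 by 0.85, 0.85 and 0.96 in the controls and by 0.48, 0.55 and 0.56 in the knockouts. The 2 groups were separated by more than either spanned, and the ratio was 0.36 lower in the knockouts. This pair was chosen after the values of both genes were seen, and its separation follows from theirs, so it restates them and has no test.

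**Figure D2:**
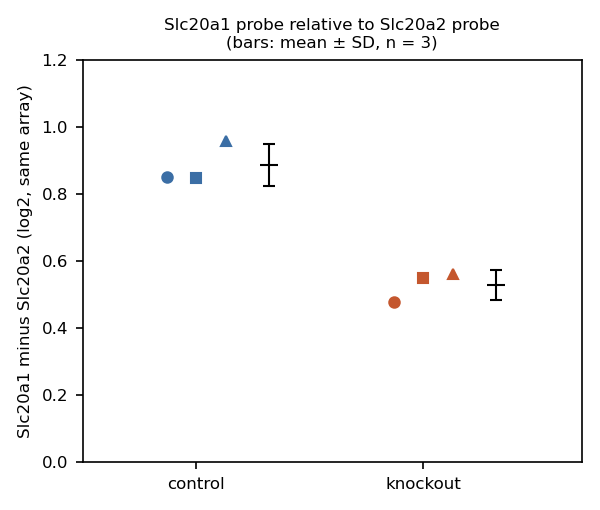
Difference between the Slc20a1 and Slc20a2 probes on the same array in log2 units, by group, with mean ± SD (n = 3). The 3 controls lie between 0.85 and 0.96 and the 3 knockouts between 0.48 and 0.56.

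In the first slide row alone, knockout 1 against the 3 controls gave -0.26 for Slc20a1 (adjusted p = 0.633) and 0.15 for Slc20a2 (adjusted p = 0.782). Beside these differences, the summed signal of the 7 macrophage and dendritic cell markers was higher in all knockouts, at 58.0 to 62.3 against 43.8 to 51.2 in the controls (in multiples of the array's 75th percentile). Of these 7 markers, 0 passed over all genes, and all 7 had a positive difference, as had 7211 of the 15309 genes tested. An unadjusted limma p under 0.05 was reached by 5 of them, where 6.69% of all genes were higher at that level. The summed signal of the 8 tubular injury markers overlapped, at 125 to 132 in the knockouts and 108 to 133 in the controls, although 7 of the 8 had a positive difference, the exception being Clu at -0.013. Clu was also the brightest of the 8 probes, at 6.37 in the controls with Spp1 next at 4.43, so it weighed most in this sum. By gene, 6 of the 8 were higher at an unadjusted p under 0.05, against 6.69% of all genes tested. All knockouts were higher for 3 of the 8, against 9.04% of all genes, and the median difference was 0.75. The injury marker gene Havcr1 (KIM-1) was at 3.71 ± 0.65 (SE; adjusted p = 0.138), and no injury marker passed. Of all marker lists, only that of macrophages and dendritic cells had sums that separated the groups. All 5 adipocyte markers had a negative difference (median -1.11), as had 3 of 4 red cell markers (median -0.71). So had 6 of 7 markers of the loop of Henle and distal tubule (median -0.12), and 8098 of the 15309 genes tested. None of these markers passed. The part of any of these cell types in the Slc20a1 and Slc20a2 differences was not tested. The summed signals of the convoluted and of the straight proximal tubule overlapped between the groups. The brightest probes weigh most in such sums, here Miox of the convoluted list and Kap of the straight list (9.24 and 9.66 in the controls). A change in a dimmer marker can therefore be lost in them. Of the 21 markers, 1 passed, where 0.17% of all genes tested did. It was Rnf24 of the straight segment, which fell by 1.04 (limma adjusted p = 0.0431).

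Xpr1, the exporter that releases phosphate from cells, was at 4.15, 4.15 and 4.20 in the controls and 4.12, 4.14 and 4.17 in the knockouts. The groups overlapped within a span of 0.09. The difference was -0.026 ± 0.045 (SE; adjusted p = 0.855), with a 95% interval from -0.14 to 0.084. A further Xpr1 probe gave -0.089 ± 0.066, also with overlapping groups.

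Across the members, 0 of the 6 tested genes passed an adjusted p of 0.05, where 0.17% of all genes tested did (0.105% higher and 0.0653% lower in the knockouts). At an unadjusted p under 0.05 there was 1 higher member and 1 lower, Slc20a2 and Slc20a1, where 12.8% of all genes reached that level, 6.69% higher and 6.13% lower. The groups did not overlap for the same 2 of 6 genes, against 19.5% of all genes tested. The median difference of the 6 was -0.025, and that of all genes was -0.0077. In absolute size, the differences of Slc20a1 and Slc20a2 exceeded those of 80.9% and 76.2% of genes, and that of Slc34a1 exceeded 18.3%. For the probes that stand for Slc34a1, Slc9a3r1 and Xpr1 the 95% intervals lay within 0.16 of 0 and reached at most from -10.4% to 10.5%. The further probes gave wider ones, from -12.0% to 12.3% for Slc34a1 and from -16.0% to 5.16% for Xpr1, while the interval of Slc34a3 reached -23.1% and 18.9%. These intervals limit the size of a difference at 3 mice per group and do not show that the groups were alike.

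**Figure D3:**
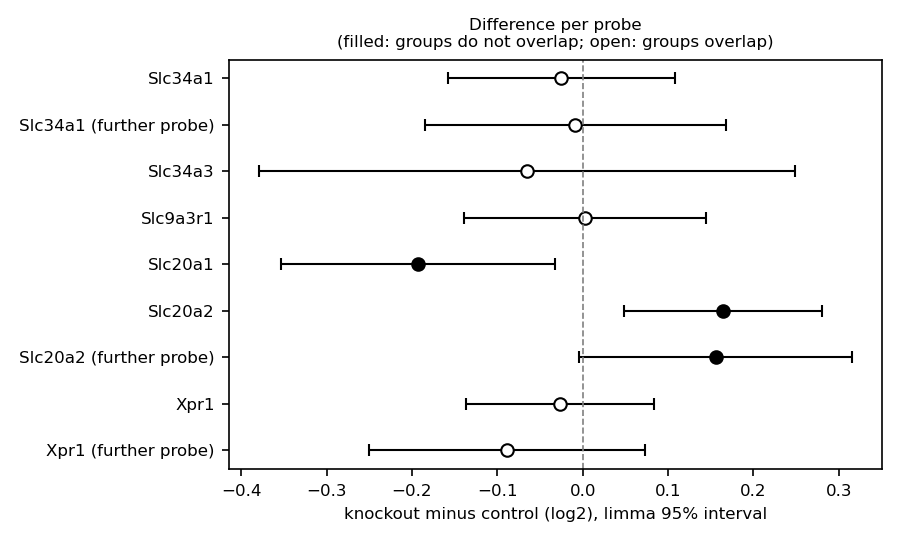
Knockout minus control in log2 units with limma's 95% interval for the 9 member probes above the filter; filled points mark probes whose groups do not overlap. The Slc20a1 point lies at -0.19 and both Slc20a2 points at 0.16, while the remaining points lie between -0.089 and 0.0024.

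The other genes of phosphate handling were taken from 4 lists of 66 genes in all, of which 58 were tested. None of the 58 passed over all genes by limma, with 5 higher and 4 lower at an unadjusted p under 0.05, where 6.69% and 6.13% of all genes were, and 0.17% of all genes passed. The groups did not overlap for 7 genes that were higher and 6 that were lower, against 9.04% and 10.5% of all genes. The median difference over the 58 was -0.013.

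Among hormones and enzymes, 8 of 13 genes were tested and 0 passed. Cyp24a1, the enzyme that inactivates vitamin D, had the largest positive difference. Its controls were at 0.48, 1.35 and 1.60 and its knockouts at 2.53, 2.54 and 2.45. The knockouts were tightly grouped and all above the controls, of which control 1 lay lowest (difference 1.36 ± 0.28, SE; adjusted p = 0.184). Without control 1 the difference was 1.03 and passed (adjusted p = 0.0473); over all 20 alternatives its adjusted p ran from 0.0437 to 0.548. Cyp27b1, which makes active vitamin D in the proximal tubule, was at -0.10, 0.51 and 0.75 in the controls and -0.07, -1.64 and -1.56 in the knockouts. Knockouts 2 and 3 lay below every control, and knockout 1 lay within the controls (difference -1.48 ± 0.47, SE; adjusted p = 0.299). Within the first slide row, which holds knockout 1 only, Cyp27b1 was at -0.46 (adjusted p = 0.848) and Cyp24a1 at 1.38 (adjusted p = 0.548).

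Kl, which encodes the FGF23 co-receptor Klotho, overlapped, at 5.36, 5.30 and 5.46 in the controls and 5.35, 5.30 and 5.28 in the knockouts (-0.063 ± 0.057, SE; adjusted p = 0.707). Stc2, the secreted stanniocalcin 2, was at 0.26 ± 0.07 (adjusted p = 0.248) with all knockouts higher, and Fam20c, the secretory pathway kinase that phosphorylates FGF23, at -0.14 ± 0.08. Of the genes active chiefly outside the kidney, Pth, Phex and Dmp1 were not well above background on any array. The probes named for the bone genes Mepe and Fgf23 were so on all 6, at 127 to 161 and 21320 to 25935 units; whether they measure those transcripts was not tested.

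Among receptors and signal proteins, 18 of 20 genes were tested and 0 passed. Pth1r, the parathyroid hormone receptor of the tubule, was at 6.41, 6.36 and 6.49 in the controls and 6.22, 6.33 and 6.31 in the knockouts. All knockouts lay below all controls, by as little as 0.03, and the difference was -0.13 ± 0.06 (SE; adjusted p = 0.422). The calcium-sensing receptor gene Casr lay lower in all knockouts, at -0.36 ± 0.08 (adjusted p = 0.215), and at -0.20 with the slide row as a block (adjusted p = 0.517). The protein kinase C genes Prkca and Prkcb lay higher in all knockouts, at 0.24 ± 0.05 and 0.38 ± 0.12 (adjusted p = 0.173 and 0.296), although another Prkca probe differed by 0.031. Fgfr1, the FGF receptor that pairs with Klotho, was at 0.12 ± 0.06 and the vitamin D receptor gene Vdr at 0.12 ± 0.07, both with overlapping groups.

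Among scaffold and trafficking partners, all 15 genes were tested and 0 passed. Slc9a3r2, the NHERF1 relative NHERF2, was at 2.50, 2.66 and 2.56 in the controls and 2.27, 2.37 and 2.44 in the knockouts. The groups did not overlap, and the difference was -0.21 ± 0.07 (SE; adjusted p = 0.315); another probe gave -0.22. Pdzk1, a further PDZ scaffold of the brush border, was at -0.064 ± 0.064 (adjusted p = 0.738), and Ezr, which links NHERF1 to actin, at -0.14 ± 0.09. The Ezr difference was -0.31 with the slide row block and -0.056 without knockout 1. Slc9a3, the sodium-proton exchanger that NHERF1 also binds, was at 0.12 ± 0.06, while another of its probes differed by -0.078 and the mean of the probes by 0.020. The kinase anchor gene Akap10 was at -0.075 ± 0.052.

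Among other phosphate and pyrophosphate genes, 17 of 18 were tested and 0 passed. Slc37a1, of the sugar phosphate exchanger family, was at 0.29 ± 0.06 (adjusted p = 0.205) with all knockouts higher. Ppip5k1, an inositol pyrophosphate kinase, was at -0.19 ± 0.07 (adjusted p = 0.352), while another of its probes differed by 0.069, and the slide row block gave -0.068. Entpd5, a nucleotide diphosphatase, was at 0.096 ± 0.047, with another probe at -0.015. Ip6k2, a further inositol pyrophosphate kinase, was at 0.12 ± 0.07. Slc25a3, the phosphate carrier of mitochondria, was at -0.022 ± 0.085 (adjusted p = 0.941), and control 3 was its highest array too.

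**Figure D4:**
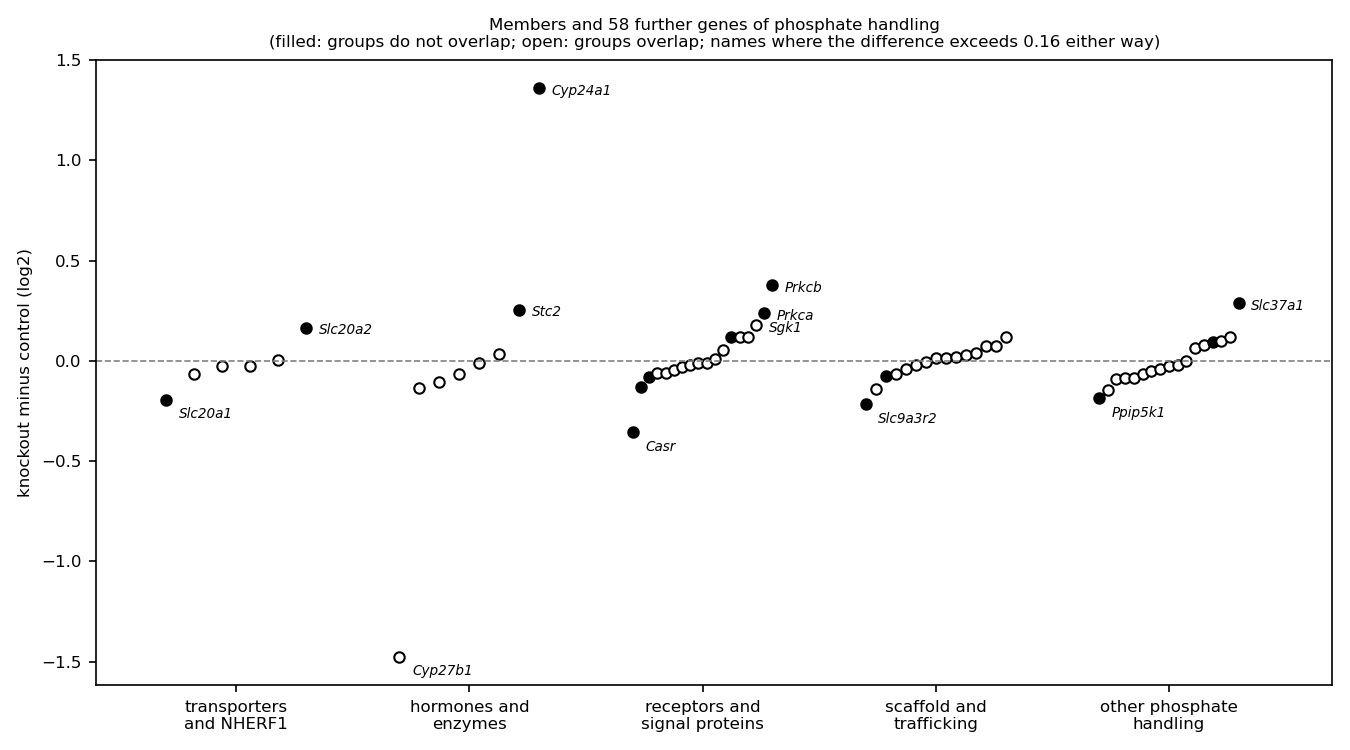
Knockout minus control in log2 units for the 6 tested members and the 58 tested genes of 4 phosphate lists; filled points mark genes whose groups do not overlap. Cyp24a1 at 1.36 and Cyp27b1 at -1.48 lie apart from the other genes, which range from -0.36 to 0.38.

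The member differences were recomputed under 20 alternative settings, and 0 of the 6 tested members passed in any of them. Slc20a1 stayed negative, from -0.27 to -0.13, and Slc20a2 positive, from 0.091 to 0.19; 6 of the 20 settings for Slc20a1 and 5 for Slc20a2 gave the same difference by construction. Their smallest adjusted p values over these settings were 0.112 and 0.0720.

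**Figure D5:**
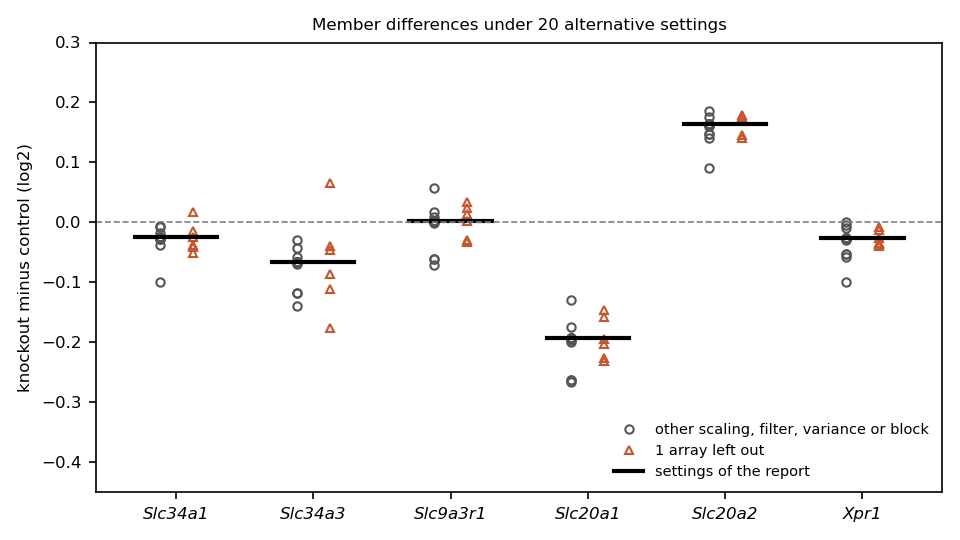
Knockout minus control in log2 units for each tested member under the settings of the report (bars), under other scaling, filter, variance or block settings (circles) and with 1 array left out (triangles). Slc20a1 stays below 0 and Slc20a2 above 0 throughout, while Slc34a1, Slc34a3, Slc9a3r1 and Xpr1 each have values on both sides of 0.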

How the data were processed

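Whole-kidney RNA of 3 control and 3 knockout mice was put on Agilent SurePrint G3 8x60K mouse expression arrays in 1 colour (Cy3), per the labels. Per the file headers, the authors obtained a linear, background-subtracted spot intensity from version 10.7.1.1 of Feature Extraction. The flags for background, saturation and outliers are deposited by the authors as 0 or 1. The value table deposited by the authors is on a linear ratio scale, each array's signal divided by a constant (at least 99.99% of probes with a ratio above 1 agree within 1%), with column medians between 0.075 and 0.084; neither a log scale nor centring was found.

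Log2 of the processed signal was taken, 92 to 151 outlier spots per array were left out, replicate spots were averaged per probe, and the 75th percentile of the array was subtracted. Between 57.3% and 63.3% of spots were well above background. A probe was kept if every array of at least 1 group flagged it as well above background, and the probe with the highest mean stood for its gene. Unversioned accessions were looked up in a RefSeq gene table of GRCm38.p6, which named 28026 of 55681 probes; the files' probe positions are on mm9, so that table gave names and the printed sequences only. The groups were compared in limma 3.58.1 (lmFit and eBayes, R 4.3.3), with Benjamini-Hochberg adjustment over 15309 genes at 0.05; the fit was tested on simulated data. An exact permutation test of 3 against 3 cannot go below p = 0.1.

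The members and lists were chosen with earlier results of these data known. Named genes are the 7 members, the 4 genes of smallest p in each list and 10 genes fixed by name. The 3 genes most like Slc34a1 and the 3 most like Slc34a3 are also named. Pth, Phex, Dmp1, Mepe and Fgf23 were added to describe detection. Havcr1, Clu, Rnf24, Miox and Kap were added to describe the marker lists. Mice are separate samples as the labels number them. Deviations from the group means had r = 0.104, -0.0962 and -0.0253 for same-numbered arrays, and from -0.0906 to 0.122 for differently numbered ones. The labels do not say that the numbers pair the mice, and these correlations cannot exclude it.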

Additional observations from a re-analysis of the deposited data

How the results depend on the processing

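With 3 mice per group, signals near background (Slc34a2 and the further Slc20a1 probe) carry no usable difference. The 20 alternatives were quantile normalisation, median scaling, normexp background correction (offset 50) before quantile normalisation, the deposited ratios, 2 other filters, 2 other treatments of probes, 2 variance models, 3 blocks or subsets, no scaling between arrays (chosen after seeing the data) and 6 fits with 1 array left out. Slc20a1 and Slc20a2 kept their direction and stayed above an adjusted p of 0.05 in all 20, of which 6 and 5 cannot move their difference. The slide row block and slide row 1 alone give 1 shared estimate. The deposited ratios had their 75th percentile at 1.003 to 1.004 on every array. That setting therefore nearly repeats the scaling of the report, at -0.194 for Slc20a1 and 0.163 for Slc20a2. Slc9a3r1 turned to -0.0010 with median scaling, -0.061 with the slide row block and within slide row 1, and -0.071 with no scaling between arrays; Xpr1 turned to 0.00014 with quantile normalisation, and Slc25a3 to 0.025 with array weights.

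With 1 array left out, Slc34a1 ran from -0.051 to 0.017, Slc34a3 from -0.18 to 0.067, Slc9a3r1 from -0.032 to 0.034, Slc20a1 from -0.23 to -0.15, Slc20a2 from 0.14 to 0.18, Xpr1 from -0.040 to -0.0081 and Slc25a3 from -0.082 to 0.061. Nampt ran from -1.15 to -1.003 and kept its call without knockout 1 only.

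Of all genes tested, 26 were called; this was 11 with quantile normalisation, 77 with no filter, 57 with a trended and robust variance, 338 with array weights, 16 with the slide row block, 6 within slide row 1, 17 with no scaling between arrays and from 0 to 95 with 1 array left out. With the replicate block, whose pairing the labels do not give and the check above cannot decide, it was 0. That block gave -0.19 for Slc20a1 (adjusted p = 0.478) and 0.16 for Slc20a2 (adjusted p = 0.473). Array weights called 3 of the 58 pathway genes, Cyp24a1, Prkca and Casr, and the fits with 1 array left out called 0 to 1. Of 21 named pathway genes, 10 moved by over 1.5 times or turned with the slide row block, 8 in some fit with 1 array left out and 5 with the mean of probes. The cause of these changes was not tested.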
